A study of Mus musculus with 6 samples.

Results

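The Slc25 genes encode the mitochondrial carrier family, the proteins that move nucleotides, phosphate, organic acids, amino acids, cofactors and iron across the inner mitochondrial membrane. Members were every gene symbol in the count tables that begins with Slc25a and a number, with 1 such symbol left out, which gave 46 of 24422 symbols. Of these, 42 had 60 or more reads summed over the 6 libraries and are given with fold changes, and 4 had fewer. Poly-A RNA of whole kidneys was counted per gene at postnatal day 13 in 3 Control and 3 TfR1 knockout kidneys, all labelled C57BL/6, from mice fed a diet with 220 ppm iron. The Control mice were labelled wild type. The TfR1 knockout mice were labelled Tfr1f/f;SixCre, which stands for both alleles of the transferrin receptor gene floxed at exons 3 and 4 together with Six2Cre, a Cre line that works in nephron progenitors. Collecting duct, stroma, vessels and blood cells lie outside this Cre, and the study describes nephron cells that escaped the deletion. In whole kidney RNA, fewer cells of a type and less RNA per cell cannot be told apart.

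Mitochondrial carriers share a fold made of tandem repeats and are encoded in the nucleus, made in the cytosol and inserted into the inner membrane by the TIM22 complex. ADP/ATP exchangers and the phosphate carrier supply ATP synthase and export its product, citrate, dicarboxylate and oxoglutarate carriers link the matrix to cytosolic metabolism, and the mitoferrins bring in iron for heme and iron-sulfur clusters. Kidney tubules, above all the proximal tubule and the thick ascending limb, are rich in mitochondria and work largely by oxidative metabolism.

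Total counts ran from 16591156 to 22898008 per library. Tfrc, the gene targeted for deletion, had 5534, 6485 and 3667 normalized counts in the Control libraries (replicates 1, 2 and 3, the order used throughout) against 6976, 4045 and 5898 in the TfR1 knockout libraries. Its groups overlapped, so its level is no check of the genotype labels (log2 fold change 0.11, DESeq2 adjusted p 0.853). Normalized counts are raw counts divided by a size factor for each library. The proximal tubule markers summed to between 85932 and 155587 normalized counts in Control libraries, lowest in Control replicate 3, and to between 141383 and 243908 in TfR1 knockout libraries, with 2 of 9 called higher by DESeq2 (Slc22a6 and Pck1), 3 lower (Lrp2, Slc5a2 and Aqp1) and a median log2 fold change of -0.57. Pck1 alone made up 88676 to 171509 of the knockout sums. Without Pck1, a choice made after its values were seen, the sums were 65985 to 123840 in Control and 52707 to 72399 in knockout libraries. Of the thick ascending limb markers 4 of 5 were lower, of the distal convoluted tubule markers 3 of 4 were lower, and of the collecting duct markers 2 of 6 were higher and 1 lower. Macrophage markers were higher for 4 of 6 genes, podocyte markers for 1 of 5. Of all genes tested by DESeq2, 7.74% were called higher and 7.18% lower. Among stroma, erythroid and brown fat markers 1 gene each was lower (Col3a1, Slc4a1 and Ucp1). Slc4a1 is in both the erythroid and the collecting duct list and is the only lower gene of each. No endothelial marker was called, with 0 of 5 at an unadjusted p under 0.05 in either DESeq2 or edgeR. Control replicate 1 held 25366 normalized counts of 5 adrenal cortex genes, against 154 to 3064 in the other libraries. DESeq2 gave none of these 5 genes a p-value. The part of these cell types in the results that follow was not tested.

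Most members of the family did not pass the test, and of the 5 that did, 4 were higher and 1 lower. Slc25a25, Slc25a24, Slc25a30 and Slc25a48 were higher in TfR1 knockout kidneys and Slc25a21 was lower, while 37 members were not called (DESeq2 Wald test, adjusted p under 0.05 over 16509 genes). Of all genes tested 14.9% were called in either direction. Higher members made up 4 of 42 (9.52%), beside 7.74% of all genes tested. The single lower member made up 2.38%, beside 7.18% of all genes. At a fold change of at least 2 as well, 3 members were higher and 1 lower, where 4.41% and 4.46% of all genes passed. With edgeR's quasi-likelihood test 4 members were higher, the same genes as with DESeq2, beside 3.22% of all genes (6.02% in either direction). No member was lower with edgeR, beside 2.8% of all genes, and 1 member was lower at an unadjusted p under 0.05. The median log2 fold change over the 42 members was 0.22, beside 0.0071 over all genes tested, with 30 members above 0 and 12 below. For 27 members, none of them called, the 95% interval of the fold change lay within a 2-fold change in either direction. Libraries of the groups did not overlap for 10 members that were higher (23.8%, beside 17.3% of genes with 60 or more reads) and 2 that were lower (4.76%, beside 17.2%).

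**Figure D1:**
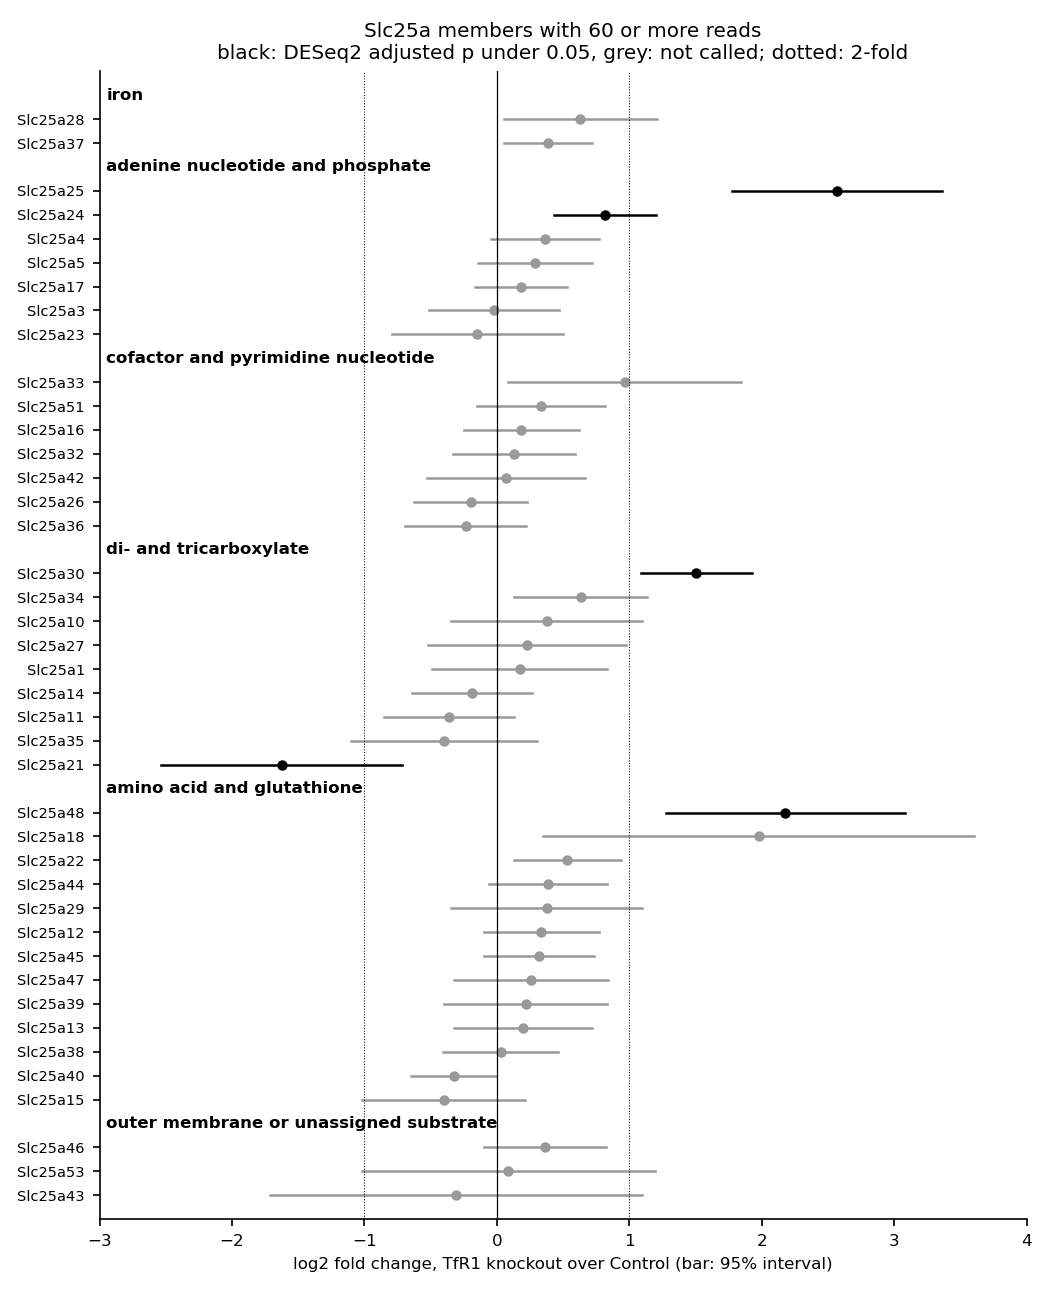
Log2 fold changes (x axis, TfR1 knockout over Control, n = 3 each) of 41 Slc25a members with 60 or more reads, grouped by what they carry, with points for estimates and bars for 95% intervals. The 5 members called by DESeq2 are black, 4 of them to the right of 0 and Slc25a21 to the left, and the 36 grey members lie mostly between the dotted 2-fold lines.

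The sequences before the transcription starts of 4 of the called members are shown because these members changed by at least 2-fold. RefSeq (GRCm38.p6 table) gave start sites for 35 of the 46 members, and the 250 bases before each start were searched. For the called members only, these windows were matched back to the mm9 genome, where each had a single match. Capitals mark a TGACGTCA (the full cyclic AMP response element) or an ACGTG (a form of the core of the hypoxia response element). These and the core motif of nuclear respiratory factor were searched on both strands. The other form of the hypoxia core, GCGTG, was not searched. It stays in lower case where it occurs, as in the printed Slc25a30 and Slc25a21 windows. Slc25a25 has an upstream, a middle and a downstream start, with windows at chr2:32306991-32307240, chr2:32286672-32286921 and chr2:32279587-32279836, all on the minus strand. The windows of Slc25a30 (chr14:76186845-76187094) and of the upstream start of Slc25a21 (chr12:58298460-58298709) are also on the minus strand, and that of Slc25a48 (chr13:56539466-56539715) is on the plus strand.
Slc25a25 upstream start: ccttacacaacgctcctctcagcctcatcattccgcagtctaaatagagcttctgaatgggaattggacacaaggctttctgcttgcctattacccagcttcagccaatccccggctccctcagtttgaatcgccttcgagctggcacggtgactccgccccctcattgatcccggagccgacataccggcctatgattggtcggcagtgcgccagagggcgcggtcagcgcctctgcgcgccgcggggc
Slc25a25 middle start: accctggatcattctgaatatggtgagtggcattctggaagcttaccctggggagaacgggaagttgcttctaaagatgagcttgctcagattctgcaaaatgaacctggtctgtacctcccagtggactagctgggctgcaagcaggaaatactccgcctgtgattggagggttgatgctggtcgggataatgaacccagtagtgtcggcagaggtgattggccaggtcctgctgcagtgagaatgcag
Slc25a25 downstream start: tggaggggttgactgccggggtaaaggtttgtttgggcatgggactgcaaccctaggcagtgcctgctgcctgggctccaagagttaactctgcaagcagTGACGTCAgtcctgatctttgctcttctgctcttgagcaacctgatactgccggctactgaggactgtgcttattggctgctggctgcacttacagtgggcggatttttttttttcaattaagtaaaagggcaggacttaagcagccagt
Slc25a30: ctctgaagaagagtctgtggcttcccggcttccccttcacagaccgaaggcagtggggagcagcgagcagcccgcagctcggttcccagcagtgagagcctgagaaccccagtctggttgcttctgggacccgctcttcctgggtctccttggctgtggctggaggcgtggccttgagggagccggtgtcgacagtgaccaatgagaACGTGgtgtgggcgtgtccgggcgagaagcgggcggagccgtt
Slc25a48: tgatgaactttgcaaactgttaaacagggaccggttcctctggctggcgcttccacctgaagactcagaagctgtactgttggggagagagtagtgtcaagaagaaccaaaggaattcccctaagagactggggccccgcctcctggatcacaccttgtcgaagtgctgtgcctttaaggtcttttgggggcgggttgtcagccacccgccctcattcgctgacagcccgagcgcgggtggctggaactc
Slc25a21 upstream start: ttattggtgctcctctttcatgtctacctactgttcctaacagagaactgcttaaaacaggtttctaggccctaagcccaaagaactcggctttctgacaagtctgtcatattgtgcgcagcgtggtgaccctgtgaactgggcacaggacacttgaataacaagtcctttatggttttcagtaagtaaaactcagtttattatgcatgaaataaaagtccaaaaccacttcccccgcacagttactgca
The window of the downstream Slc25a25 start held 1 TGACGTCA, an element found in 1.55% of 32851 promoter windows of this length and in 2 of the 45 windows of the family (4.44%). The Slc25a30 window held 1 ACGTG, which occurs in 16.6% of all windows and in 12 of the 45 family windows (26.7%). No printed window held the nuclear respiratory factor core, present in 3.74% of all windows and in 2 family windows. The counts are per gene and do not say which start was used, and a match is a description of letters, not of binding.

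Among the carriers of adenine nucleotides and phosphate, 2 of 7 measured members were higher and none was lower, beside 7.74% and 7.18% of all genes tested. Both belong to the calcium-regulated ATP-Mg/phosphate carriers, which load the matrix with adenine nucleotides. Slc25a25 (chr2:32270007-32306965) had 1349, 1366 and 912 normalized counts in Control libraries and 6529, 11511 and 3451 in knockout libraries. Every knockout library stood above every Control library, but the knockout libraries differed among themselves, with replicate 2 the highest and replicate 3 the lowest. The group means were 1209 ± 258 and 7163 ± 4067 (SD, n = 3 each), a 5.92-fold increase (95% interval 3.42 to 10.3). On the log2 scale it rose by 2.57 (SE 0.40), with an adjusted p of 1.86e-08 in DESeq2 and 0.0192 in edgeR. Leaving out each library in turn kept the call, with log2 fold changes from 2.05 to 2.90. In the annotation 8.18% of its exon bases are shared with other genes, and the sources used here do not state whether reads were counted by strand. The shared part was larger for Slc25a35 (31.3%), Slc25a33 (14.9%), Slc25a46 (10.5%) and Slc25a11 (8.92%). How far the counts of these genes are affected was not estimated.

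Slc25a24 (chr3:108926067-108971375), a paralog with the same kind of substrate, had 509, 479 and 654 normalized counts in Control and 887, 972 and 1032 in knockout libraries. Its groups were apart by more than their spread, with means of 547 ± 93.9 and 964 ± 72.9 (SD, n = 3 each). The increase was 1.76-fold (95% interval 1.35 to 2.30), or 0.82 on the log2 scale (SE 0.20), with an adjusted p of 6.66e-04 in DESeq2 and 0.0358 in edgeR, and the call held without any 1 library. The third ATP-Mg/phosphate carrier, Slc25a23 (chr17:57183134-57199286), had 2545, 2815 and 1173 normalized counts in Control and 2240, 1801 and 1858 in knockout libraries. Its groups overlapped and it was not called (log2 fold change -0.15, SE 0.33, DESeq2 adjusted p 0.819), and the sign turned to 0.075 without Control replicate 2.

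The ADP/ATP exchangers Slc25a4 and Slc25a5, which carry ATP out of the matrix, were not called. Slc25a4 had 13004, 13788 and 12586 normalized counts in Control and 13684, 21187 and 15916 in knockout libraries (1.29-fold, 95% interval 0.972 to 1.71, DESeq2 adjusted p 0.241). Slc25a5 had 19326, 20890 and 18599 in Control and 20923, 30970 and 20069 in knockout libraries (1.22-fold, 95% interval 0.908 to 1.65, DESeq2 adjusted p 0.407). In both genes TfR1 knockout replicate 2 stood above all other libraries. Replicate 1 of the knockout for Slc25a4 and replicate 3 for Slc25a5 lay within the Control range, so the groups overlapped. These exchangers are close in sequence and have processed copies elsewhere in the genome, so reads that fit several places were lost in unique counting and their levels are uncertain. The phosphate carrier Slc25a3 had 18713, 19816 and 11143 normalized counts in Control and 15438, 17292 and 16100 in knockout libraries, within the Control range (0.983-fold, 95% interval 0.700 to 1.38). The peroxisomal nucleotide carrier Slc25a17 was at 1.14-fold (95% interval 0.894 to 1.44).

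**Figure D2:**
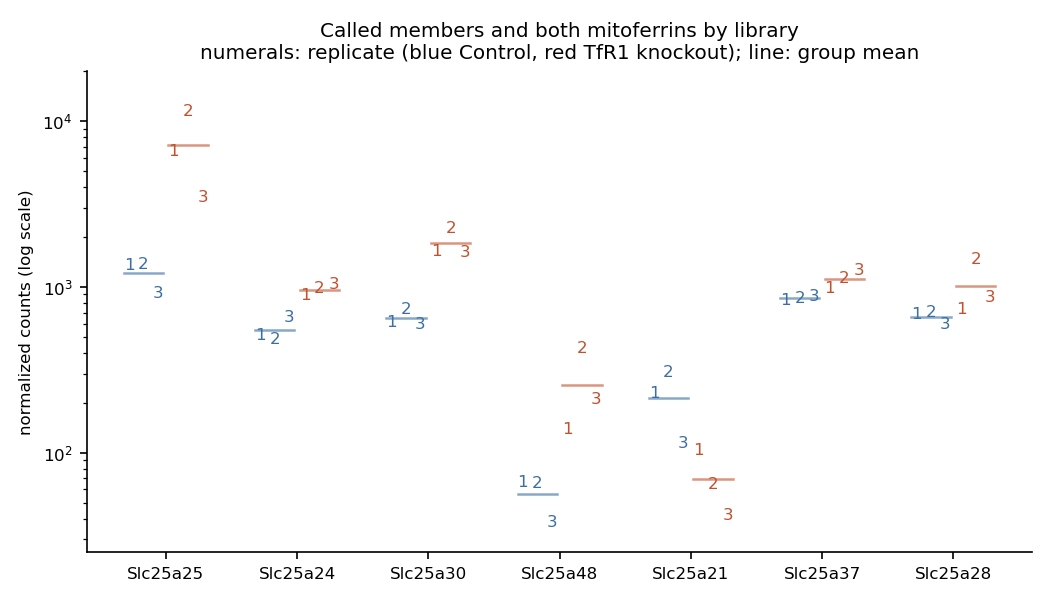
Normalized counts (y axis, log scale) of the 5 called members and of both mitoferrins in each library, where each numeral is a replicate, blue for Control and red for TfR1 knockout, and lines are group means. The colours do not overlap for any of the 7 genes, but Slc25a21, Slc25a28 and Slc25a37 come close. Their nearest Control and knockout libraries are at 114 against 103, 698 against 727 and 879 against 973 normalized counts.

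The 9 carriers of di- and tricarboxylates and their relatives held 1 higher and 1 lower member, beside 7.74% and 7.18% of all genes tested. Slc25a30 (chr14:76161806-76186844), described as a kidney mitochondrial carrier and related to the uncoupling proteins, had 613, 735 and 595 normalized counts in Control and 1646, 2262 and 1619 in knockout libraries. The groups were far apart relative to their spread, with means of 648 ± 76.4 and 1842 ± 364 (SD, n = 3 each). This 2.84-fold increase had the smallest adjusted p in the family (95% interval 2.13 to 3.80), at 1.72e-10 in DESeq2 and 0.00566 in edgeR. Its log2 fold change was 1.51 (SE 0.21). Without each library in turn the log2 fold change stayed between 1.34 and 1.60 and the call held.

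Slc25a21 (chr12:57813621-58298459), the oxodicarboxylate carrier used in the breakdown of lysine and tryptophan, was the only member called lower. It had 226, 304 and 114 normalized counts in Control and 103, 64.0 and 41.6 in knockout libraries. The lowest Control library, replicate 3, lay close to the highest knockout library, replicate 1. The mean fell from 215 ± 95.3 to 69.7 ± 31.3 (SD, n = 3 each), a 0.325-fold level (95% interval 0.173 to 0.609) with a log2 fold change of -1.62 (SE 0.46) and an adjusted p of 0.00606 in DESeq2. This call was not made by edgeR (adjusted p 0.0805). It was also lost without Control replicate 1 (log2 fold change -1.59), Control replicate 2 (-1.30) or TfR1 knockout replicate 3 (-1.35).

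The abundant carriers of this group were not called. Slc25a10, the dicarboxylate carrier, had 5461, 6335 and 2358 normalized counts in Control and 7821, 4978 and 5555 in knockout libraries, with Control replicate 3 far below the other libraries. Slc25a11, the oxoglutarate carrier of the malate-aspartate shuttle, had 4122, 4505 and 2982 in Control and 3777, 2454 and 2808 in knockout libraries. Slc25a1, the citrate carrier that feeds fatty acid synthesis, was at 1.13-fold (95% interval 0.712 to 1.78), a direction that turned to a log2 fold change of -0.13 without TfR1 knockout replicate 1. Slc25a34, whose substrate is unsettled, had 227, 219 and 150 normalized counts in Control and 304, 354 and 267 in knockout libraries, which did not overlap, but it did not pass (log2 fold change 0.63, SE 0.26, DESeq2 adjusted p 0.0756). The remaining members of the group, Slc25a14, Slc25a27 and Slc25a35, had log2 fold changes of -0.19, 0.23 and -0.40.

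Of the 13 measured carriers of amino acids and glutathione and their relatives, 1 was higher and none was lower. This is near the share over all genes tested, 7.74% higher and 7.18% lower. Slc25a48 (chr13:56539716-56575600), which has been linked to choline import, had 66.0, 65.4 and 37.7 normalized counts in Control and 137, 423 and 208 in knockout libraries. All knockout libraries were above all Control libraries, with a spread of several-fold within the knockout group. The means were 56.4 ± 16.2 and 256 ± 149 (SD, n = 3 each), a 4.53-fold increase (95% interval 2.42 to 8.47). Its log2 fold change was 2.18 (SE 0.46), with an adjusted p of 7.18e-05 in DESeq2 and 0.0385 in edgeR. Leaving out each library in turn gave 1.61 to 2.48 and kept the call.

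Slc25a18, a glutamate carrier, was near the lower limit of counting, with 9, 4 and 10 raw reads in Control and 15, 46 and 13 in knockout libraries. Its libraries did not overlap, but most of the difference came from TfR1 knockout replicate 2, without which the log2 fold change was 0.92 in place of 1.98, and it was not called (DESeq2 adjusted p 0.0896). Its paralog Slc25a22, the more abundant glutamate carrier, had 451, 410 and 351 normalized counts in Control and 621, 642 and 491 in knockout libraries. These groups did not overlap either, and the 1.44-fold difference missed the threshold (95% interval 1.09 to 1.91, DESeq2 adjusted p 0.0626). The aspartate/glutamate carriers Slc25a12 and Slc25a13, the other arm of the malate-aspartate shuttle, were at 1.26-fold (95% interval 0.933 to 1.71) and 1.15-fold (95% interval 0.801 to 1.64). Slc25a15, the ornithine carrier of the urea cycle, had 2814, 2951 and 1363 normalized counts in Control and 1773, 2069 and 1564 in knockout libraries. Only without Control replicate 3 was it called lower (log2 fold change -0.68, DESeq2 adjusted p 0.00563), against -0.40 with all libraries.

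The glutathione carrier Slc25a39 had 5854, 6115 and 2887 normalized counts in Control and 7006, 5160 and 5108 in knockout libraries, which overlapped. Its paralog Slc25a40 had 406, 413 and 374 in Control and 320, 319 and 313 in knockout libraries. Every knockout library was thus below every Control library and the spread was small, but the 0.798-fold difference was not called (95% interval 0.639 to 0.998, DESeq2 adjusted p 0.178). Slc25a38, which supplies glycine for heme synthesis, was at 1.02-fold (95% interval 0.756 to 1.37), with a sign that depended on the scaling. Slc25a44, the branched-chain amino acid carrier, had 844, 844 and 582 normalized counts in Control and 875, 1134 and 961 in knockout libraries, not overlapping and not called (DESeq2 adjusted p 0.261). Slc25a29, Slc25a45 and Slc25a47 had log2 fold changes of 0.38, 0.32 and 0.26, none of them called.

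Neither mitoferrin was called. Slc25a37, mitoferrin 1 and the main iron importer of erythroid mitochondria, had 827, 855 and 879 normalized counts in Control and 973, 1121 and 1252 in knockout libraries. The knockout libraries were all above the Control libraries, and the difference was 1.31-fold (95% interval 1.04 to 1.64), with a log2 fold change of 0.39 (SE 0.17) and an adjusted p of 0.107 in DESeq2 and 0.141 in edgeR. Slc25a28, mitoferrin 2, the form found across tissues, had 677, 698 and 594 normalized counts in Control and 727, 1466 and 859 in knockout libraries. It was at 1.55-fold (95% interval 1.04 to 2.31), or 0.63 on the log2 scale (SE 0.29, adjusted p 0.137 in DESeq2), with TfR1 knockout replicate 2 well above the rest, and without that library its log2 fold change was 0.28. Both passed without TfR1 knockout replicate 1 (DESeq2 adjusted p 0.0411 for Slc25a37 and 0.0264 for Slc25a28). Both also had an unadjusted p under 0.05 with either tool. The erythroid marker Alas2, the first enzyme of heme synthesis in red cell precursors, ran from 1571 to 4879 normalized counts in Control and from 1222 to 5399 in knockout libraries, and both of these ranges are wider than that of Slc25a37.

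None of the 8 carriers of cofactors and pyrimidine nucleotides was called, beside 14.9% of all genes tested. Of these 8, 1 had an unadjusted p under 0.05 with DESeq2 and 0 with edgeR. Slc25a33, a pyrimidine nucleotide carrier, had 322, 373 and 211 normalized counts in Control and 423, 1034 and 317 in knockout libraries. The groups overlapped, and the log2 fold change of 0.97 (SE 0.45, DESeq2 adjusted p 0.134) was 0.29 without TfR1 knockout replicate 2. It was called without TfR1 knockout replicate 3 (log2 fold change 1.27, DESeq2 adjusted p 0.049) and with the replicate number as a block (0.82, DESeq2 adjusted p 0.0364). Slc25a36, the other pyrimidine nucleotide carrier, was at 0.849-fold (95% interval 0.618 to 1.17) and was called lower only without TfR1 knockout replicate 2 (log2 fold change -0.48, DESeq2 adjusted p 0.0218). Slc25a51, the NAD carrier, had 4506, 4392 and 3070 normalized counts in Control and 4161, 6307 and 4604 in knockout libraries (1.26-fold, 95% interval 0.900 to 1.76). The carriers of S-adenosylmethionine (Slc25a26), folate or FAD (Slc25a32) and coenzyme A (Slc25a16 and Slc25a42) had log2 fold changes of -0.20, 0.13, 0.19 and 0.069, each with an interval that held 0. Slc25a46, which sits in the outer membrane and takes part in mitochondrial dynamics, and the little studied Slc25a43 and Slc25a53 were not called either, with log2 fold changes of 0.37, -0.31 and 0.087 and 0 of 3 at an unadjusted p under 0.05 with DESeq2 and with edgeR.

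The 4 members below 60 reads were Slc25a2, Slc25a31, Slc25a41 and Slc25a54. Slc25a2, an ornithine carrier, had 2 to 10 raw reads per library. Slc25a31, the germ-line ADP/ATP exchanger, had 2 to 5, and Slc25a41 had 0 to 2. Slc25a54 had 0 in every library, which allows up to 3 reads in each and covers counting error only. At this depth no difference could be detected in these genes.

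Levels of different carriers were compared per kilobase of exon, for the 41 measured members with an annotated length. The length was that of all annotated exon bases of a gene, merged over its transcripts. It can be longer than the transcripts present in kidney, and the order and shares below depend on it. Slc25a51, at 3989 normalized counts in Control, had no matched length and is in neither the order nor the summed level of the family. Slc25a5 was the most abundant in Control kidneys, at 11911 ± 711 normalized counts per kilobase (SD, n = 3), followed by Slc25a4 at 5579 ± 259 and Slc25a3 at 2983 ± 851. Slc25a11 (1825 ± 374) and Slc25a39 (1797 ± 651) came next and did not differ beyond their spread. Without division by length, the Control mean of Slc25a3 was above that of Slc25a4, at 16558 against 13126 normalized counts. In Control replicate 3 it was below, at 11143 against 12586. The ADP/ATP exchangers Slc25a4 and Slc25a5 together held 48.7%, 49.0% and 58.4% of the summed level of the family in Control libraries and 47.8%, 56.5% and 51.9% in knockout libraries, so their share overlapped between groups. Slc25a25 held 0.822%, 0.779% and 0.691% of the summed level in Control and 3.64%, 5.05% and 2.04% in knockout libraries, which did not overlap. It ranked 17 of 41 in Control (261 ± 55.6 per kilobase). In knockout kidneys its mean was 1547 ± 878 per kilobase (SD, n = 3), with libraries at 1409, 2485 and 745. The knockout mean of Slc25a11 was 1421 ± 323. Mitoferrin 2 was above mitoferrin 1 per kilobase, at 434 ± 36.3 against 205 ± 6.31 in Control. In normalized counts without division by length the order was the reverse, at 656 against 854. The annotated exon lengths were 1514 bases for mitoferrin 2 and 4162 for mitoferrin 1. The least abundant measured members, Slc25a18, Slc25a53 and Slc25a43, were at 5.26, 6.15 and 11.6 per kilobase in Control.

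**Figure D3:**
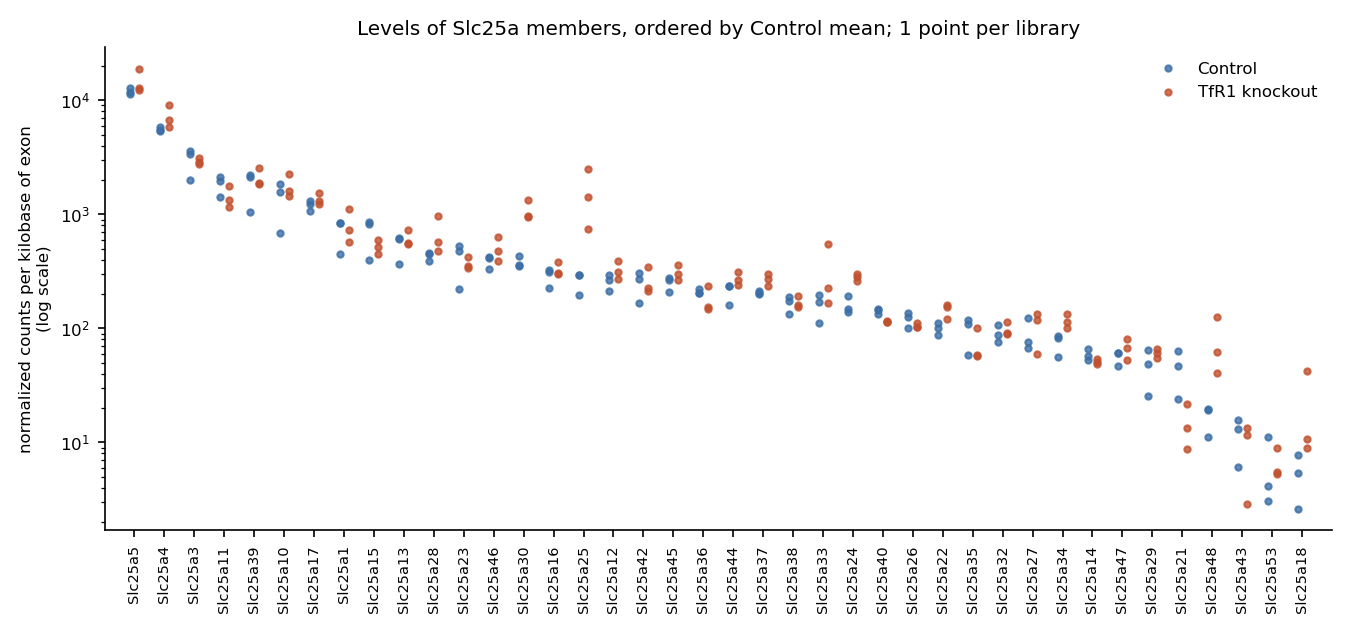
Normalized counts per kilobase of exon (y axis, log scale) of 40 Slc25a members, ordered by their Control mean, with 1 point per library in blue (Control) or red (TfR1 knockout). Slc25a5, Slc25a4 and Slc25a3 lead in both groups, and for most members the colours overlap, while Slc25a25, Slc25a30 and Slc25a48 in red stand above blue.

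Within the Control group 33 of the 42 measured members (78.6%) were lowest in replicate 3, beside 45.5% of all genes with 60 or more reads. The summed markers of proximal tubule, thick ascending limb, distal convoluted tubule, collecting duct and podocytes were also lowest in that library among the Controls. Its stroma and endothelium markers summed to 100192 and 19775 normalized counts, against at most 50404 and 11878 in the other Controls. In the knockout group 27 members (64.3%) were highest in replicate 2, beside 40.8% of all genes. That knockout library had the lowest size factor, 0.782 at 17486578 total counts, against 0.929 at 16591156 in Control replicate 3. These counts of members were made with median-ratio scaling only. The part of these libraries' makeup in single members was not tested beyond leaving each of them out. Without Control replicate 3 the 4 higher members remained called, Slc25a15 joined Slc25a21 among the lower ones, and the median log2 fold change of the family was 0.14. Without TfR1 knockout replicate 2 that median was 0.12.

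Ratios of related carriers within a library do not depend on the scaling between libraries and were compared for 10 pairs, by a two-sided exact permutation test on log2 ratios, where 3 against 3 libraries cannot give a p below 0.1. The ratio of Slc25a25 to Slc25a23 was 0.606, 0.555 and 0.888 in Control and 3.33, 7.30 and 2.12 in knockout libraries (exact p 0.1, adjusted over the 10 pairs 0.167). Slc25a23 was thus the more abundant per kilobase in every Control library, and Slc25a25 in every knockout library. Slc25a25 also moved against Slc25a24, from 1.96, 2.11 and 1.03 to 5.45, 8.77 and 2.48. The ratio of the dicarboxylate carrier Slc25a10 to the oxoglutarate carrier Slc25a11 was 0.813, 0.863 and 0.485 in Control libraries. In knockout libraries it was 1.27, 1.24 and 1.21 (exact p 0.1, adjusted over the 10 pairs 0.167), so it did not pass. Neither gene was called by itself, and the lowest Control ratio was that of replicate 3. Slc25a30 to Slc25a14, Slc25a33 to Slc25a36 and Slc25a39 to Slc25a40 also had ratios that did not overlap between groups, with the same smallest p. Ratios that hold Slc25a25 or Slc25a30 contain a member already called, so they are no separate support for those calls. The pairs were chosen with earlier results known, and no share of such ratios over other gene pairs was counted. The mitoferrin ratio, Slc25a37 to Slc25a28, was 0.444, 0.446 and 0.538 in Control and 0.487, 0.278 and 0.530 in knockout libraries and overlapped (exact p 0.8). The Slc25a5 to Slc25a4 ratio of the ADP/ATP exchangers was 2.13 ± 0.028 in Control and 2.03 ± 0.199 in knockout libraries (SD, n = 3 each). Knockout replicate 3 lay below every Control library and knockout replicate 1 above them, so the groups overlapped (exact p 0.5). The ratios of Slc25a13 to Slc25a12 and of Slc25a24 to Slc25a23 overlapped as well (exact p 0.6 and 0.4).

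**Figure D4:**
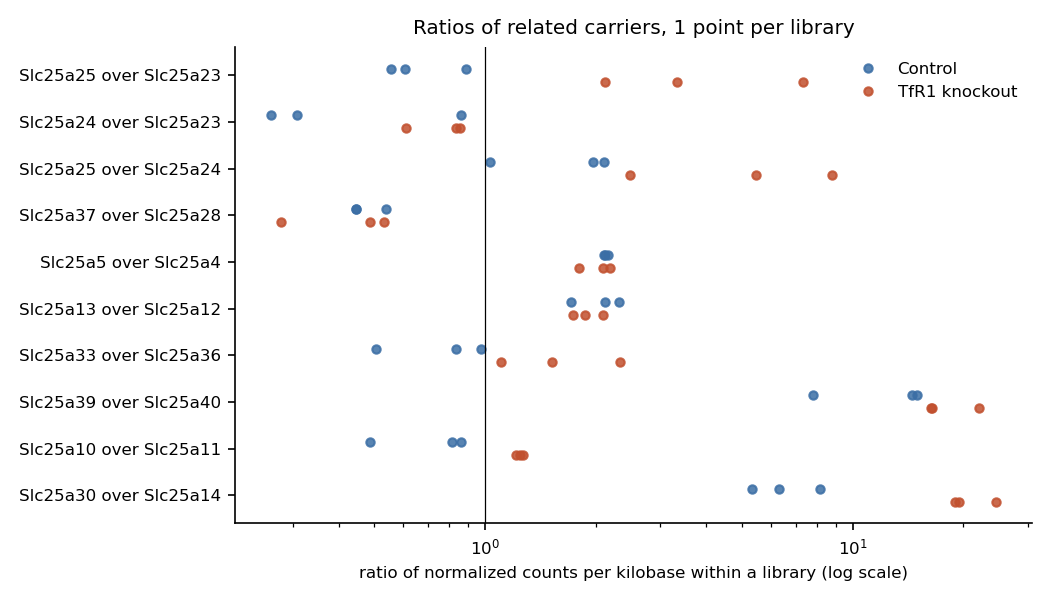
Ratio of normalized counts per kilobase of exon (x axis, log scale) for 10 pairs of related carriers, with 1 point per library in blue (Control) or red (TfR1 knockout). The red points lie to the right of all blue points for 6 pairs, among them Slc25a25 over Slc25a23 and Slc25a10 over Slc25a11, and overlap for the mitoferrins and the ADP/ATP exchangers.

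Other genes of mitochondrial transport and biogenesis were read beside the family. The share of all genes tested that DESeq2 called was 7.74% higher and 7.18% lower. Of 5 family members under other symbols, Ucp1, the uncoupling protein of brown fat, was lower (1609, 3244 and 4178 normalized counts in Control and 716, 422 and 945 in knockout libraries; log2 fold change -2.12, DESeq2 adjusted p 5.83e-06), and the other 4 were not called. Their most abundant members, Mtch1 and Ucp2, had log2 fold changes of 0.024 and 0.34. The other brown fat markers with 60 or more reads (Cidea, Adipoq, Plin1 and Fabp4) were not called. Among the pyruvate carriers and sideroflexins, 1 of 7 was higher, Sfxn1, a mitochondrial serine carrier (log2 fold change 0.79, DESeq2 adjusted p 0.0414), which edgeR did not call. The median of that list was -0.30, and 4 of 7 had an unadjusted p under 0.05 in DESeq2 (3 in edgeR), of which Sfxn2, Sfxn4 and Mpc1, named after their values were seen, had log2 fold changes of -0.71, -0.51 and -0.44. Mpc2, a subunit of the pyruvate carrier, had a log2 fold change of -0.30 and was not called. The TIM22 and outer membrane import genes gave 0 of 12 calls, with 0 at an unadjusted p under 0.05 in DESeq2 and in edgeR and a median log2 fold change of -2.15e-04. The import receptors Tomm20 and Tomm70a, its most abundant members, were at 0.30 and 0.12. The outer membrane channels gave 0 of 4 calls, with 1 at an unadjusted p under 0.05 in each tool (Tspo, named after its value was seen). Vdac1 and Vdac2, the main metabolite pores, had log2 fold changes of 0.28 and 0.15. In the calcium uniporter list 1 of 9 was higher, the low-level Ccdc109b (22.3, 22.7 and 33.4 normalized counts in Control and 66.6, 69.1 and 44.5 in knockout libraries; log2 fold change 1.21, DESeq2 adjusted p 0.0253), not called by edgeR. Mcur1 and Smdt1, regulators of the uniporter, were at -0.39 and 0.087. The regulators of mitochondrial biogenesis and markers of mitochondrial mass gave 0 of 12 calls, with 2 at an unadjusted p under 0.05 in DESeq2 and 1 in edgeR. The matrix chaperones Hspa9 and Hspd1 had log2 fold changes of 0.62 and 0.086.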

How the data were processed

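Poly-A RNA from whole mouse kidneys was sequenced as single-end reads in 6 libraries, 3 per group. According to the submitters' processing notes and the study's methods, the authors used CASAVA 1.8.2, trimmed reads with Trimmomatic, aligned them to mm9 with TopHat2 2.0.11, and counted uniquely mapped reads per gene with HTSeq. The deposited values are raw counts with no normalization, and the annotation and strand setting are not given in the sources used here. With unique counting, reads shared by near-identical genes are lost.

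Groups and replicate numbers came from the sample labels. The series text calls the samples biological replicates, and the labels do not name the animals, so p-values measure the spread between these samples. The comparison was fitted on all genes with DESeq2 1.42.0 in R 4.3.3, the study's tool (Wald test, median-ratio size factors, no covariate, independent filtering at 0.05, Benjamini-Hochberg adjustment). Fold changes are unshrunken, with 95% intervals from their standard errors. Named genes are the members with 60 or more reads (per-library values for those called and the mitoferrins, and for others chosen after their values were seen) and, of the other transport lists, the called genes and the 2 with the highest mean count. The members, gene lists, carrier pairs and motifs were chosen with earlier results of these data known. Symbols of 45 of the 46 members were found in the mm9 GENCODE annotation, which gave positions and exon lengths. Alternatives were edgeR 4.0.16, other scalings and filters, other read minimums, a replicate block, and fits without each library. The code was tested on simulated data. The symbol left out of the member list, and the values of 1 member that stays in the counts, are not reported here.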

Additional observations from a re-analysis of the deposited data

How the results depend on the processing

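The 4 higher members were called in every alternative tried, and none of their directions turned. With edgeR 921 genes of all genes were called, 733 at 2-fold, no member was called lower (0) and no other mitochondrial transport gene higher (0). The cause was not tested. The calls of other transport genes were 2 higher and 1 lower. Without independent filtering 1 was higher, and 2 were lower with upper-quartile and 5 with total-count scaling. Total-count scaling moved the median log2 fold change of all genes to -0.097 and the share of calls that were higher from 51.9% to 41.5%. Under it Slc25a42 was at -0.048, Slc25a53 at -0.067 and Slc25a38 at -0.081 (-0.021 with upper-quartile scaling). Members with 10 or more and with 600 or more reads gave the same counts of calls.

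Leaving out each library in turn gave 1239 to 3205 called genes (lowest without Control replicate 1, highest without TfR1 knockout replicate 1), 0 to 2 lower members, 0 to 3 higher and 1 to 3 lower transport genes, and a Tfrc change of -0.095 to 0.30. Signs turned for Slc25a1 (-0.13 to 0.37), Slc25a3 (-0.25 to 0.12), Slc25a13 (-0.015 to 0.32), Slc25a23 (-0.45 to 0.075), Slc25a38 (-0.11 to 0.13), Slc25a39 (-0.059 to 0.39), Slc25a42 (-0.17 to 0.25), Slc25a43 (-0.65 to 0.11) and Slc25a53 (-0.24 to 0.84). Over all members and alternatives, 557 results stayed on their side, 4 lost a call, 6 gained one and 21 changed sign.

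With the replicate number as a block, 5 members were higher, with Slc25a33 added (0.82), and Slc25a3 was at 0.018. Deviations of same-numbered libraries correlated at 0.0148, 0.0663 and 0.155, and not every library correlated best with its own number, and no pairing was assumed. Counts limit what can be said of Slc25a18, Slc25a43 and Slc25a53.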
